A study of Homo sapiens with 4 samples.

Results

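A set of 28 genes of cholesterol synthesis, uptake and efflux was taken by symbol from 56865 genes summed with the GENCODE 29 annotation, and all 28 were among the 19358 genes that passed the filter on low counts. They comprise 19 enzymes that build cholesterol, 6 genes of lipoprotein uptake, sterol sensing and sterol transport, and 3 genes of efflux and esterification. Poly(A) RNA was sequenced from the human breast cancer line MDA-MB-468 (spelled MDA-MD-468 in some labels), which the labels call triple negative, that is, classed as lacking the estrogen and progesterone receptors and HER2 amplification. Cells at passage 12 received 5 µM MS1943 for 3 days (2 libraries) or the vehicle DMSO (2 libraries, with no separate time given). The series describes MS1943 as degrading EZH2, the histone methyltransferase at the core of the complex PRC2. The design is a single line at a single dose and time, and the sample titles mark each MS1943 library with 3 letters and each DMSO library with 1, without saying whether dishes were pooled. Nothing in the labels makes the duplicates separate cultures. The p-values therefore reflect only how far these samples spread, and that spread may be technical.

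Cholesterol is made from acetyl units through mevalonate, isoprenoid pyrophosphates, squalene and lanosterol. Its synthesis genes are classically driven by the transcription factor SREBP2, product of SREBF2, which the escort protein SCAP carries out of the endoplasmic reticulum when membrane sterol is low and which INSIG proteins hold back when sterol is plentiful. In efflux, oxysterols activate the liver X receptors, whose textbook targets include the transporter genes ABCA1 and ABCG1 and the ubiquitin ligase gene MYLIP. These are general facts of the pathway and were not measured here.

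After MS1943, the efflux genes ABCA1 and ABCG1 rose 7.10-fold and 2.81-fold, and STARD4 and SOAT1, of sterol carriage and storage, rose 1.88-fold and 1.46-fold. The synthesis enzymes changed in both directions: 5 of 19 rose, 9 fell and 5 did not pass. The largest fall of the 28 was that of TM7SF2, a sterol reductase gene, at 0.368 of its DMSO level on the fitted scale, and the second sterol reductase gene of the same step, LBR, fell to 0.627. Across all 28 genes, 9 rose and 12 fell in edgeR's quasi-likelihood test at a Benjamini-Hochberg adjusted p under 0.05. The background was high: 30.0% of all tested genes rose and 29.4% fell, 59.3% in all, beside 32.1% and 42.9% of the 28 genes, 75.0% in all. The share that rose lay near this background and the share that fell above it, a description that was not tested. That background includes many genes of low count. With a filter of 1 CPM in both libraries of a group, 10413 of 14147 tested genes were called, 5175 higher and 5238 lower. The 75.0% of the 28 genes comes from the main fit, so it is not a like comparison with this larger share. Under that filter FDPS and SQLE were called as well (edgeR adjusted p = 0.0297 and 0.0461), and no gene of the 28 lost its call. Whether the 28 genes exceed this background was not tested. Scaling by total reads in place of TMM moved the median over all tested genes to -0.12 on the log2 scale. Under it 7 of the 28 rose and 15 fell, and of all tested genes 4619 rose and 6973 fell, against 5799 and 5689 with TMM, so directions below are relative to the TMM scaling. The median log2 fold change was -0.09 over the 28 genes and -0.01 over all tested genes. In bulk RNA, fewer cells expressing a gene and less RNA per cell cannot be told apart.

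The libraries held 69878745 and 47564377 (MS1943) and 64720699 and 71378893 (DMSO) estimated reads. All 11 listed epithelial and basal markers of the labelled line, such as KRT19 and EGFR, stood at 1 TPM or more in every library. Several of them differed between the groups: KRT16 stood at 1043 and 961 TPM with MS1943 against 96.2 and 97.3 TPM with DMSO, KRT5 at 2901 and 2660 against 812 and 866 TPM, and KRT8 at 966 and 969 against 1677 and 1661 TPM. Of the other cell types' markers, PTPRC and CD3E of leukocytes stayed at or below 0.0866 TPM, CD14 was the exception at 95.9 and 103 TPM with MS1943 against 187 and 189 TPM with DMSO, and COL1A1, at 10.2 to 17.8 TPM, was the one fibroblast marker of 4 over 1 TPM. Endothelial and hepatocyte markers stayed below 1 TPM. The part of these markers in the results below was not tested. Mitochondrially encoded genes took 3.52% and 3.11% of gene reads with MS1943 and 1.65% and 1.78% with DMSO; the part of this difference in the results was not tested either. Unless TPM is named, levels are CPM, a gene's reads scaled to library size after TMM. TPM is the deposited abundance, divided by transcript length and with no TMM factor, so a difference in TPM can depart from that in CPM. Each mean carries the SD of 2 libraries, and each log2 fold change, taken as MS1943 over DMSO, its SE.

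**Figure D1:**
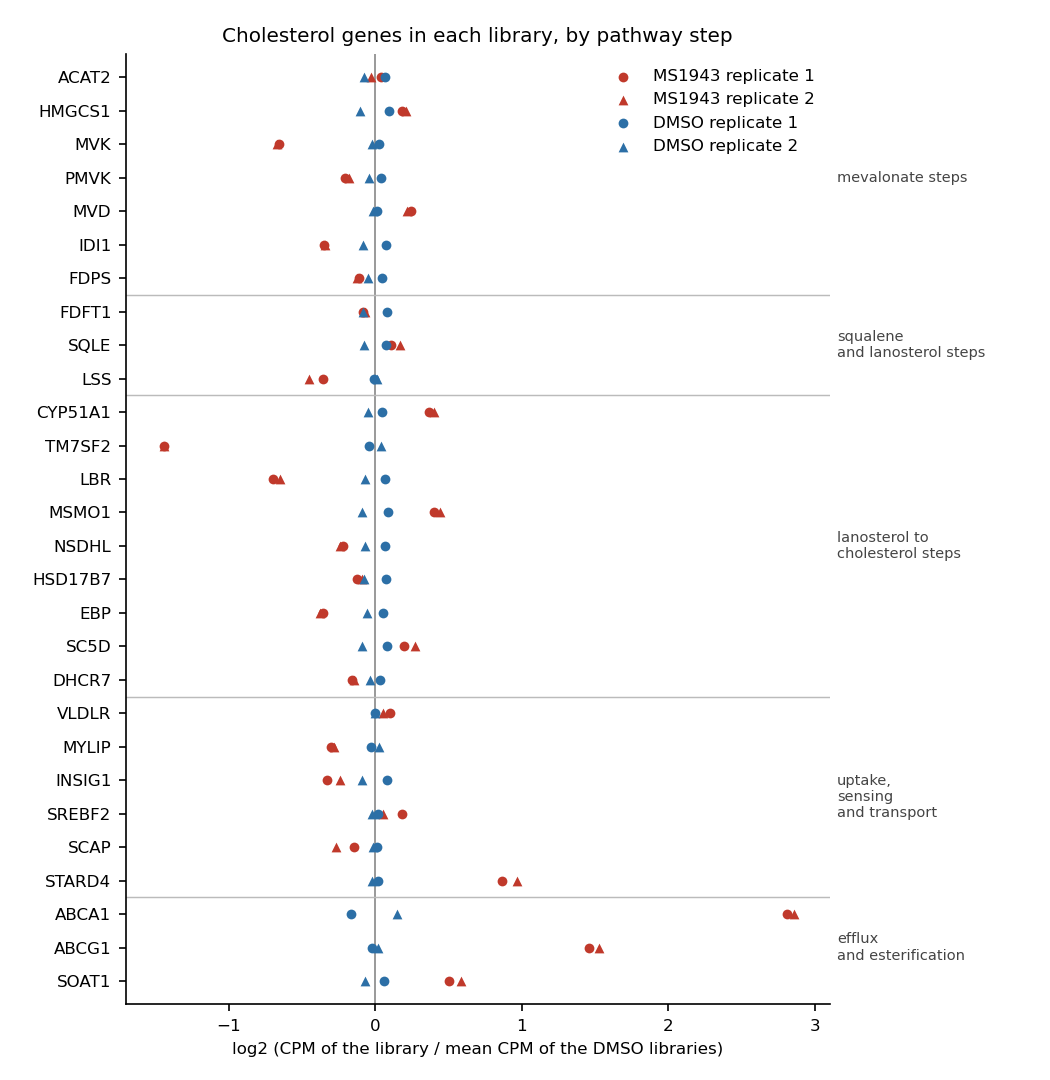
Level of each of the 28 genes in each library, as log2 of its CPM over the mean of the DMSO libraries (x axis), with genes grouped by pathway step (y axis), red for MS1943 and blue for DMSO. ABCA1 and ABCG1 stand far to the right and TM7SF2 to the left, while most synthesis enzymes lie close to the DMSO points.

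The promoters of ABCA1, INSIG1 and SREBF2 are shown because each carries a motif of SREBP, and that of MVK for its matches to the NF-Y box; they come from the RefSeq table on GRCh38.p14, which held 24 of the 28 genes, and cover the 250 bases before the annotated start, 5′ to 3′ on the gene's strand. The motifs searched on both strands were the sterol regulatory element TCACNCCAC, its overlapping core CACCCCAC, the SREBP E-box TCACGTGA, the NF-Y box CCAAT, the liver X receptor DR4 element and the ATF4 composite element TGATGNAA. Capitals mark the match of ABCA1 to the core, of INSIG1 to the E-box, of SREBF2 to the whole element and of MVK to CCAAT or its complement.
ABCA1 (chr9:104928156-104928405, minus strand): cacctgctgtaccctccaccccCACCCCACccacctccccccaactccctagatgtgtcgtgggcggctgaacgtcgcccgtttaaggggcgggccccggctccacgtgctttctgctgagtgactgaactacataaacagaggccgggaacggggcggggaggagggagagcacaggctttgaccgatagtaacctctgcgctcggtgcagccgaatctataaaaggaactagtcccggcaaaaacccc
INSIG1 (chr7:155297628-155297877, plus strand): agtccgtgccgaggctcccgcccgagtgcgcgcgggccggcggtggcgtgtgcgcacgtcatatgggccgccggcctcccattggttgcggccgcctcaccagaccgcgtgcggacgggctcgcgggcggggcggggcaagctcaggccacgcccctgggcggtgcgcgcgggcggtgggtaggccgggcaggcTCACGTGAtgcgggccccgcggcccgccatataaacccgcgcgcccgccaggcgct
SREBF2 (chr22:41832855-41833104, plus strand): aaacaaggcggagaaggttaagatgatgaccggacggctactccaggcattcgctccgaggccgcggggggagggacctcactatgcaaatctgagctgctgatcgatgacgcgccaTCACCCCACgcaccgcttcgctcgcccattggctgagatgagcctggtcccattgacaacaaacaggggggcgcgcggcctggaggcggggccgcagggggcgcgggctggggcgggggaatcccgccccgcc
MVK (chr12:109573544-109573793, plus strand): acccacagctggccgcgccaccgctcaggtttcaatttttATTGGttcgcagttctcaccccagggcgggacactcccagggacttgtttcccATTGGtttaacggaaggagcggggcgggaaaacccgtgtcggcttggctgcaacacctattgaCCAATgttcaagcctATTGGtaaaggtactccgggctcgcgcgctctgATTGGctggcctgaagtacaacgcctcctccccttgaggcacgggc

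The whole sterol regulatory element was found in SREBF2 alone, beginning at position -133 from the start, and in 0.883% of all 35116 promoters of the table. The core, which overlaps it, was found in SREBF2 and in ABCA1 (position -228), against 2.43% of all promoters. The E-box was found in INSIG1 alone (position -56), against 0.854%. The NF-Y box CCAAT was by far the commonest: it stood in 20 of 29 promoters of these genes (69.0%), against 32.0% of all promoters and 32.7% of those of protein-coding genes. Among the 16 synthesis enzymes with a promoter in the table, 13 carried it. Per promoter, MVK and NSDHL had 5 matches each, MSMO1 had 4, and EBP, FDPS and MVD had 3 each. IDI1 had 3 in the window from 1048837 and 2 in that from 1049070. The NF-Y box did not sort the genes by direction, being present in 6 of the 8 matched genes that rose and in 9 of the 12 that fell. The exact DR4 and ATF4 patterns, held by 0.0342% and 3.14% of all promoters, were found in none of these windows. The exact DR4 pattern passes over near matches. With 1 mismatch allowed, ABCA1 matched at position -69 (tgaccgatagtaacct, on the gene's strand), against 0.518% of all promoters. This search was added after the letters were seen, and none of the other promoters of these genes in the table matched. A match is a description of letters in a window and no evidence of binding. The RefSeq start lay 82, 102, 0 and 18 bases from the start of the leading GENCODE transcript of ABCA1, INSIG1, SREBF2 and MVK.

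The first steps of synthesis join acetyl units and carry them to farnesyl pyrophosphate, and of these 7 mevalonate genes 2 rose, 3 fell and 2 did not pass. MVK, mevalonate kinase (hg38 chromosome 12, 109573255 to 109598117), stood at 28.5 and 28.2 CPM with MS1943, against 45.6 and 44.0 CPM with DMSO. Both treated libraries lay far below both controls, and MVK fell by 0.66 ± 0.06 (log2; edgeR adjusted p = 1.4e-08). MVK shares 306 exonic bases with MMAB on the other strand, whose lowest level was 28.2 CPM (MS1943 replicate 1) and highest 38.3 CPM (DMSO replicate 1), and these unstranded libraries cannot tell their reads apart there. IDI1, the isomerase that interconverts the isoprenoid pyrophosphates, stood at 106 CPM in both MS1943 libraries, against 142 and 127 CPM with DMSO, and fell by 0.35 ± 0.06. PMVK, the kinase that follows MVK, fell more weakly, to 36.6 ± 0.468 CPM with MS1943, against 41.8 ± 1.59 CPM with DMSO (log2 fold change -0.19); DESeq2 did not call it (adjusted p = 0.0537).

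MVD, after these kinases, and HMGCS1, at the head of the pathway, rose. MVD, the decarboxylase that yields the first isoprenoid, rose to 276 ± 4.16 CPM with MS1943, against 235 ± 2.93 CPM with DMSO (0.23 ± 0.05, edgeR adjusted p = 0.0013). HMGCS1, the synthase that makes the precursor of mevalonate, stood at 165 and 168 CPM with MS1943, against 155 and 135 CPM with DMSO, and rose by 0.20 ± 0.06. That call ended under total-read scaling (edgeR adjusted p = 0.205, log2 fold change 0.08) and without DMSO replicate 2 (edgeR adjusted p = 0.177, log2 fold change 0.09). ACAT2, the thiolase that joins acetyl units, stood at 223 ± 6.99 and 222 ± 15.5 CPM with MS1943 and with DMSO (0.01 ± 0.06), and its libraries overlapped. ACAT2 shares 397 exonic bases with TCP1 on the other strand, a gene at 614 and 615 CPM with MS1943 and 536 and 481 CPM with DMSO. FDPS, which makes farnesyl pyrophosphate, stood at 278 ± 1.72 CPM with MS1943 and 301 ± 14.4 CPM with DMSO and did not pass (-0.11 ± 0.06, edgeR adjusted p = 0.096), though it was called as lower under 4 alternatives, with edgeR adjusted p from 0.00080 to 0.0297.

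A group of 3 enzymes carries farnesyl pyrophosphate through squalene to lanosterol, and of these LSS fell and FDFT1 and SQLE did not pass. LSS, the cyclase that closes the sterol rings, stood at 216 and 203 CPM with MS1943, against 274 and 279 CPM with DMSO (-0.40 ± 0.06, edgeR adjusted p = 5.1e-06). No treated library reached a control. SQLE, the oxygenase that opens this branch to sterols, stood at 82.7 and 86.5 CPM with MS1943, against 80.8 and 72.8 CPM with DMSO. Its libraries did not overlap but lay close, and the test just missed (0.14 ± 0.06, edgeR adjusted p = 0.052); it was called without DMSO replicate 1 (0.21, edgeR adjusted p = 0.0016) and with a filter of 1 CPM (0.13, edgeR adjusted p = 0.0461). FDFT1, squalene synthase, stood at 278 ± 1.23 CPM with MS1943 and 293 ± 23.2 CPM with DMSO, and the libraries overlapped. It was called as lower under total-read scaling (edgeR adjusted p = 0.0058) and without DMSO replicate 2 (edgeR adjusted p = 0.0103).

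The last stage strips methyl groups from lanosterol and moves or removes double bonds, and of its 9 genes 3 rose, 5 fell and 1 did not pass. TM7SF2, which like LBR encodes a reductase for the product of CYP51A1, is on hg38 chromosome 11 from 65111845 to 65116384. It stood at 9.91 and 9.92 CPM with MS1943, against 26.2 and 27.7 CPM with DMSO, and fell by 1.44 ± 0.07 (edgeR adjusted p = 3.6e-12). LBR, which also anchors chromatin at the nuclear lamina, stood at 86.8 and 89.3 CPM with MS1943, against 147 and 134 CPM with DMSO, and fell by 0.67 ± 0.06 (edgeR adjusted p = 7.7e-09). Both genes of the reductase step were thus lower in both treated libraries than in either control. In length-scaled terms LBR was the more abundant of the pair, at 37.5 ± 0.0915 TPM with MS1943 and 61.1 ± 3.09 TPM with DMSO, where TM7SF2 had 11.5 ± 1.74 and 30.1 ± 2.43 TPM.

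CYP51A1, before the reductases, and MSMO1, after them, rose. CYP51A1, the demethylase that acts first on lanosterol, stood at 179 and 183 CPM with MS1943, against 144 and 134 CPM with DMSO (0.38 ± 0.06, edgeR adjusted p = 8.0e-06). MSMO1, the oxidase that starts removal of the paired methyl groups, stood at 143 and 147 CPM with MS1943, against 115 and 101 CPM with DMSO (0.42 ± 0.06, edgeR adjusted p = 6.7e-06). The partners of MSMO1 in that removal did not follow it. NSDHL, the decarboxylating dehydrogenase, fell to 97.5 ± 0.992 CPM with MS1943, against 114 ± 7.44 CPM with DMSO (-0.23), and HSD17B7, the ketoreductase, stood at 15.6 ± 0.237 and 16.8 ± 1.20 CPM with MS1943 and with DMSO and did not pass (edgeR adjusted p = 0.25; 0.0190 under total-read scaling).

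Of the closing steps, EBP, the isomerase, fell and SC5D, the desaturase, rose. EBP stood at 93.5 and 92.2 CPM with MS1943, against 124 and 115 CPM with DMSO (-0.37 ± 0.06, edgeR adjusted p = 1.4e-05). SC5D stood at 165 and 174 CPM with MS1943, against 153 and 135 CPM with DMSO (0.24 ± 0.06), a call lost under total-read scaling (edgeR adjusted p = 0.0665). DHCR7, the final reductase of one route to cholesterol and the most abundant of the 28 genes in TPM, fell to 574 ± 3.85 CPM with MS1943, against 639 ± 20.2 CPM with DMSO (-0.15 ± 0.06, edgeR adjusted p = 0.031). The DHCR7 call ended without DMSO replicate 1 and without MS1943 replicate 1 (edgeR adjusted p = 0.0511 and 0.0606).

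As a length-scaled sum, the 19 enzymes held 2573 and 2595 TPM with MS1943, against 3025 and 2970 TPM with DMSO, a difference of -13.8% between the group means. Summed as TMM-scaled CPM, the same genes averaged 3060 with MS1943 and 3220 with DMSO, a difference of -4.95%. In TPM, the largest contributions came from abundant genes: DHCR7 differed by -93.6 TPM, FDPS by -86.3 TPM and EBP by -84.2 TPM. The fitted log2 changes of DHCR7 and FDPS were small, at -0.15 and -0.11, and that of EBP was -0.37. In order of TPM the 5 most abundant genes were DHCR7, FDPS, FDFT1, MVD and EBP in both groups, while TM7SF2 stood at rank 27 of 28 with MS1943 and at rank 21 with DMSO. In TPM the DMSO values of DHCR7 (496 ± 10.3) and FDPS (489 ± 12.0) did not differ beyond their spread, nor did the MS1943 values (403 ± 2.17 and 403 ± 0.282). ABCA1 was the least abundant in both groups.

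**Figure D2:**
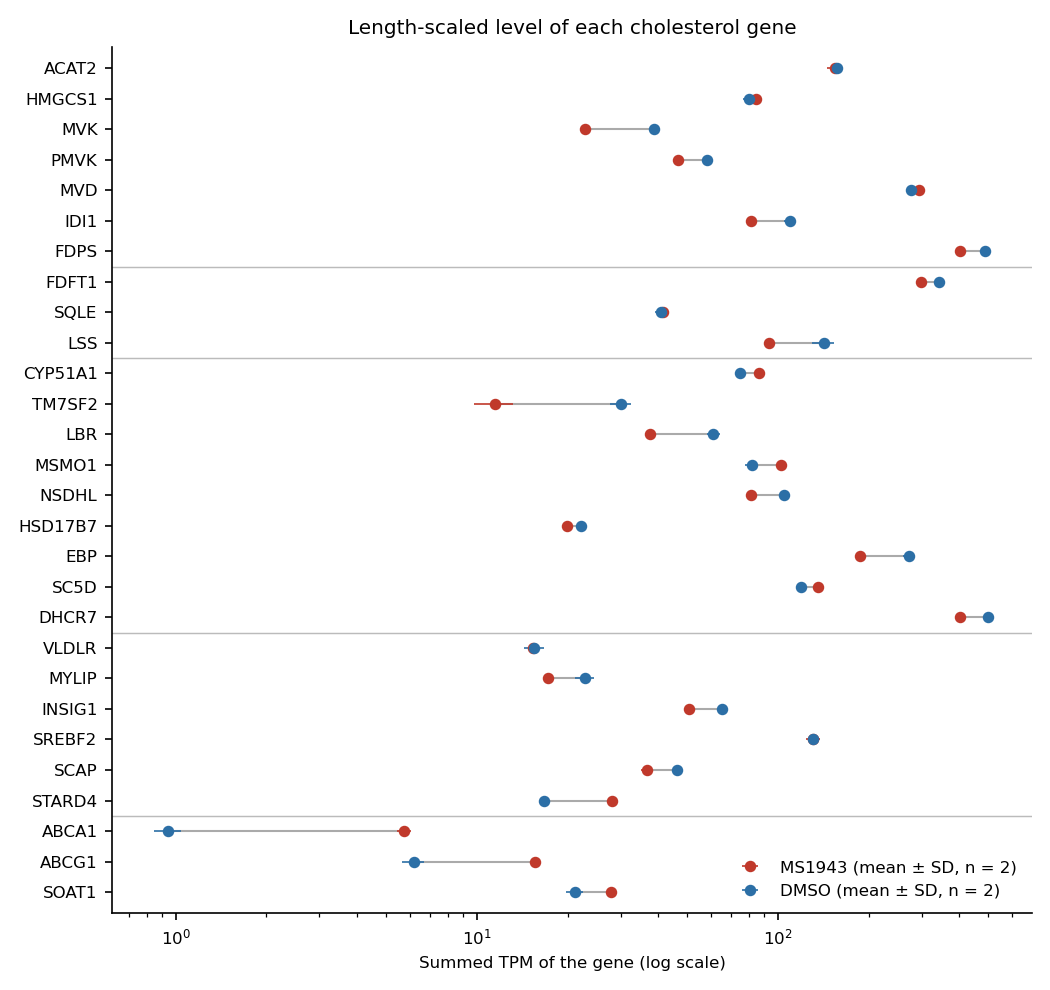
Length-scaled level of each gene (TPM summed over its transcripts, log x axis), mean ± SD of 2 libraries per group, red for MS1943 and blue for DMSO, in pathway order down the y axis. The enzymes lie between 11.5 TPM (TM7SF2 with MS1943) and 496 TPM (DHCR7 with DMSO), and ABCA1 lies lowest in both groups with the widest gap.

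Uptake, sensing and transport changed unevenly, with 1 of 6 genes higher and 3 lower. STARD4, a soluble carrier that moves sterol between membranes (hg38 chromosome 5, 111496033 to 111512590), stood at 47.8 and 51.3 CPM with MS1943, against 26.7 and 25.9 CPM with DMSO. Both treated libraries lay well above the controls, and STARD4 rose by 0.91 ± 0.06 (edgeR adjusted p = 2.2e-10). INSIG1, which retains SCAP in the endoplasmic reticulum and is itself a classic SREBP target, stood at 85.5 and 90.9 CPM with MS1943, against 113 and 101 CPM with DMSO. It fell by 0.28 ± 0.06 (edgeR adjusted p = 6.1e-04). STARD4 and INSIG1, both known as sterol-responsive genes, were thus called in opposite directions.

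SREBF2, the gene of the factor itself, did not pass, and SCAP fell. SREBF2 stood at 507 and 464 CPM with MS1943, against 452 and 440 CPM with DMSO. The libraries did not overlap, but the difference did not pass (0.12 ± 0.06, edgeR adjusted p = 0.092). It passed without DMSO replicate 1 (edgeR adjusted p = 0.0301) and without MS1943 replicate 2 (edgeR adjusted p = 0.0322). SCAP fell to 88.5 ± 5.05 CPM with MS1943, against 102 ± 1.46 CPM with DMSO (-0.20 ± 0.06). For uptake, VLDLR, a receptor for triglyceride-rich lipoproteins, stood at 38.5 ± 0.905 and 36.5 ± 0.0705 CPM with MS1943 and with DMSO and did not pass (0.08 ± 0.06, edgeR adjusted p = 0.27). MYLIP, the ubiquitin ligase that sends lipoprotein receptors to degradation, stood at 24.4 and 24.7 CPM with MS1943, against 29.5 and 30.5 CPM with DMSO, and fell by 0.29 ± 0.06 (edgeR adjusted p = 6.2e-04). MYLIP is a textbook liver X receptor target, as ABCA1 and ABCG1 are, and was called in the other direction.

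All 3 genes of efflux and esterification rose. ABCA1, which loads cholesterol and phospholipid onto lipid-poor apolipoproteins (hg38 chromosome 9, 104781002 to 104928237), stood at 39.1 and 40.3 CPM with MS1943, against 4.97 and 6.17 CPM with DMSO. These rest on 2596 and 1846 reads with MS1943 and 327 and 463 reads with DMSO. The groups lay far apart, and ABCA1 rose by 2.83 ± 0.09 (edgeR adjusted p = 2.3e-15). ABCG1, a half-transporter that passes sterol to mature lipoprotein particles (hg38 chromosome 21, 42199689 to 42297244), stood at 32.0 and 33.7 CPM with MS1943, against 11.5 and 11.8 CPM with DMSO, and rose by 1.49 ± 0.07 (edgeR adjusted p = 9.3e-13). SOAT1, which esterifies cholesterol for storage, stood at 86.4 and 91.4 CPM with MS1943, against 63.6 and 58.1 CPM with DMSO (0.55 ± 0.06, edgeR adjusted p = 1.6e-07). Of the 28 genes, only ABCA1 and ABCG1 rose at least 2-fold and only TM7SF2 fell as far. Among all tested genes, 7.97% rose and 7.93% fell by that much. Summed in TPM, the 3 genes held 48.5 and 49.9 TPM with MS1943, against 28.8 and 27.8 TPM with DMSO, and in CPM they averaged 161 with MS1943 and 78.1 with DMSO.

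**Figure D3:**
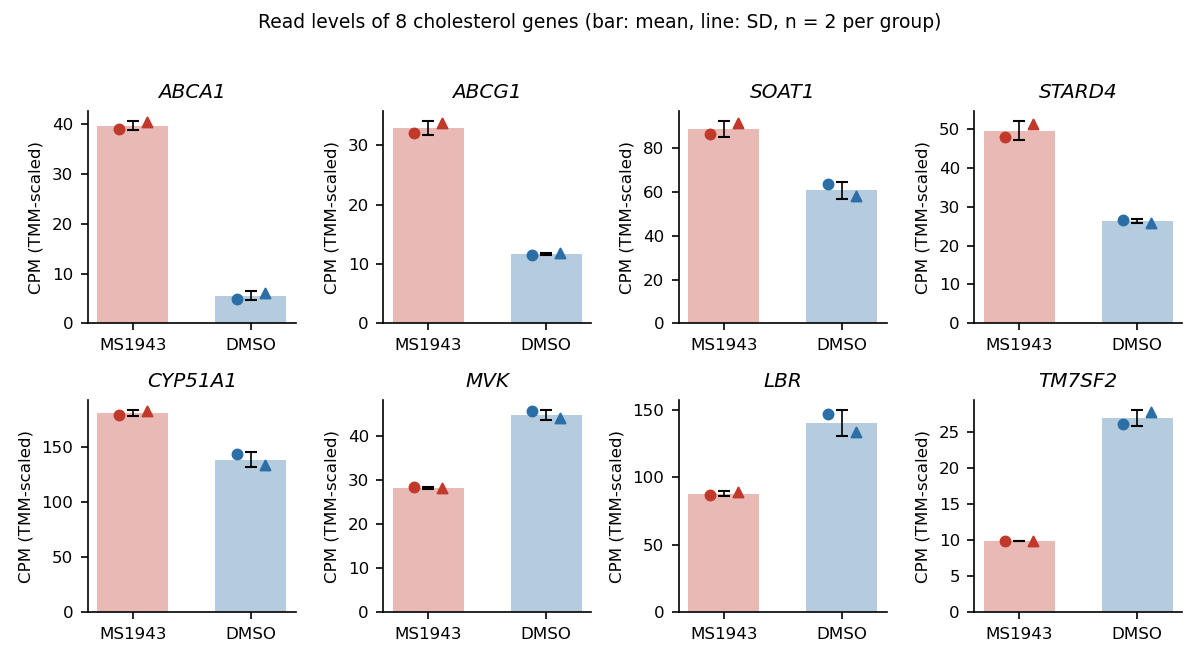
TMM-scaled CPM of 8 genes with MS1943 (left, red) and DMSO (right, blue); bars are means, lines are SD of 2 libraries and points are the libraries. The 8 genes are all among those called, and in every panel both libraries of one group lie beyond both of the other. The fold difference is largest for ABCA1.

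Counted without a test, the treated libraries lay wholly above the controls for 12 of the 28 genes, wholly below for 14, and overlapped for ACAT2 and FDFT1. Over all tested genes the shares were 38.4% above and 39.9% below. The edgeR direction and call of 17 genes held under all 9 other settings tried, among them the 7 rises of MVD, CYP51A1, MSMO1, STARD4, ABCA1, ABCG1 and SOAT1 and the 10 falls of MVK, IDI1, LSS, TM7SF2, LBR, NSDHL, EBP, MYLIP, INSIG1 and SCAP. ABCA1 ranged from 2.68 to 2.99 and TM7SF2 from -1.56 to -1.30 on the log2 scale.

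**Figure D4:**
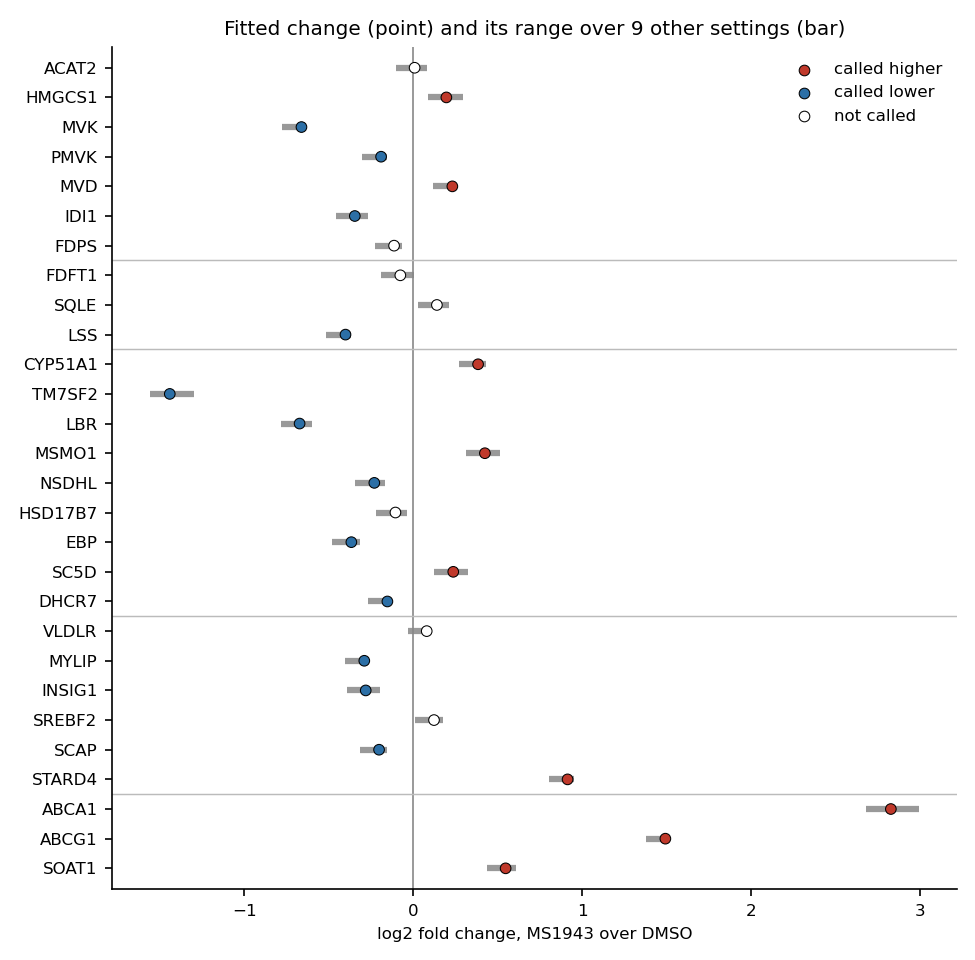
Fitted log2 fold change of each gene, MS1943 over DMSO (point, filled by call), with the range over the 9 other settings and the fit shown (grey bar). The bars of ABCA1, ABCG1, STARD4 and TM7SF2 stay far from 0, and those of ACAT2, FDFT1 and VLDLR cross it.

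Among the main transcripts of the 28 genes, none was called in the direction opposite to a call of its gene. Of 66 transcripts holding at least 10% of their gene's TPM, 64 could be tested, 6 rose and 9 fell in edgeR's test of all 74941 tested transcripts, where 6.23% rose and 6.21% fell. With any 1 library left out fewer of these transcripts were called, and the shares over all transcripts in those fits are not given. The longest ABCA1 transcript (10494 bases) held 80.2% and 90.3% of the gene's TPM with MS1943 and 74.4% and 83.6% with DMSO, and rose by 2.77 ± 0.13 (edgeR adjusted p = 0.0041). The leading coding transcript of TM7SF2 (1722 bases) fell by 1.63 ± 0.10 (edgeR adjusted p = 0.0057) and held 67.0% and 49.2% of the gene's TPM with MS1943 against 74.0% and 67.6% with DMSO. Share differences of at least 10 percentage points were found for this transcript, for a noncoding TM7SF2 transcript of 486 bases, at 1.57% and 27.7% with MS1943 and 0 and 1.02% with DMSO, and for a noncoding ABCA1 transcript of 807 bases, at 1.86% and 0.0069% with MS1943 and 25.6% and 0 with DMSO. The noncoding pair each rest on a single library. The share difference of the coding TM7SF2 transcript rests mainly on MS1943 replicate 2 (49.2%). Its share in MS1943 replicate 1 (67.0%) lay close to that in DMSO replicate 2 (67.6%). The ABCG1 coding transcripts of 2923 and 2998 bases, chosen after their values were seen, traded places within each group. The longer held 0.728% and 42.1% with MS1943 and 51.7% and 0.00026% with DMSO, and the shorter 38.7% and 5.10% with MS1943 and 0.0117% and 39.3% with DMSO. The error of assigning reads between such overlapping forms is not in the files.

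A further 7 lists of related genes, 96 genes of which 88 were tested, set these results beside the wider pathway. Among 12 genes of SREBP processing and sterol-regulated degradation 5 rose and 4 fell (median log2 fold change -0.01). INSIG2, the paralog of INSIG1, rose by 0.76 ± 0.06, at 76.5 and 76.7 CPM with MS1943 against 46.6 and 44.0 CPM with DMSO, while INSIG1 fell. FAF2, a recruiter of the extraction machinery of the endoplasmic reticulum, rose by 0.61, ERLIN2, a scaffold for sterol-regulated ubiquitin ligases, fell by 0.65, and SREBF1, the gene of SREBP1, fell by 0.57. Of 14 tested other enzymes and targets of sterol and fatty acid synthesis, 5 rose and 7 fell (median -0.17), including TMEM97, a sterol-regulated membrane protein, at -0.77 ± 0.07, and LPIN1, a phosphatidate phosphatase, at 0.60 ± 0.06.

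The isoprenoid branch leaves the pathway at farnesyl pyrophosphate, and 7 of its 13 genes rose and 5 fell (median 0.17). DHDDS, a subunit of the enzyme that makes dolichol chains, stood at 163 and 153 CPM with MS1943, against 65.5 and 65.9 CPM with DMSO (1.27 ± 0.06, edgeR adjusted p = 4.5e-13). Subunits of protein prenyltransferases went both ways: FNTA stood at 77.5 and 83.1 CPM with MS1943 against 40.7 and 39.8 CPM with DMSO, PGGT1B rose by 0.97 and RABGGTB by 0.60, while the partner subunits FNTB and RABGGTA, outside the naming rule and added after their values were seen, fell by 0.24 and 0.28. Among 8 tested lipoprotein receptors and partners 4 rose and 3 fell (median 0.01). The sorting receptor gene SORL1 fell to 61.9 and 56.3 CPM with MS1943, against 145 and 149 CPM with DMSO (-1.31 ± 0.06), and SORT1 fell by 0.54, while LRP8 rose by 0.59 and LRP10 by 0.47.

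Intracellular sterol transport was the list with most rises, 12 of 21 genes against 3 falls (median 0.22). NPC1, which exports cholesterol from the lysosome, stood at 128 and 126 CPM with MS1943, against 61.4 and 56.3 CPM with DMSO (1.11 ± 0.06). OSBPL6, of the oxysterol-binding protein family, rose by 1.74 ± 0.08 and the membrane-contact sterol carrier gene GRAMD1B by 1.47 ± 0.08, but GRAMD2A, also of the GRAM-domain family, fell by 1.54 ± 0.06. Of 10 tested genes of the liver X receptors and their targets, 5 rose and 2 fell (median 0.31). The receptor gene NR1H2 rose by 0.60 ± 0.06 and its partner RXRB by 0.19 ± 0.05. The other receptor gene, NR1H3, did not pass (-0.08 ± 0.07), and the other partner, RXRA, was called lower (-0.15 ± 0.05). NR1H3 and RXRA are outside the naming rule and were added after their values were seen. Of 10 tested oxysterol and sterol ester enzymes 4 rose and 3 fell (median -0.16), with CYP39A1, an oxysterol hydroxylase gene, up by 1.03 ± 0.08, ACBD3 up by 0.88, and the esterase gene CES1 down to 0.662 and 0.940 CPM with MS1943, against 5.63 and 4.66 CPM with DMSO (-2.71 ± 0.19). CES1 has a closely similar pseudogene copy, so its reads are uncertain. These counts stand beside the same 30.0% and 29.4% of all tested genes, a background that includes many genes of low count. No difference between lists was tested.

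**Figure D5:**
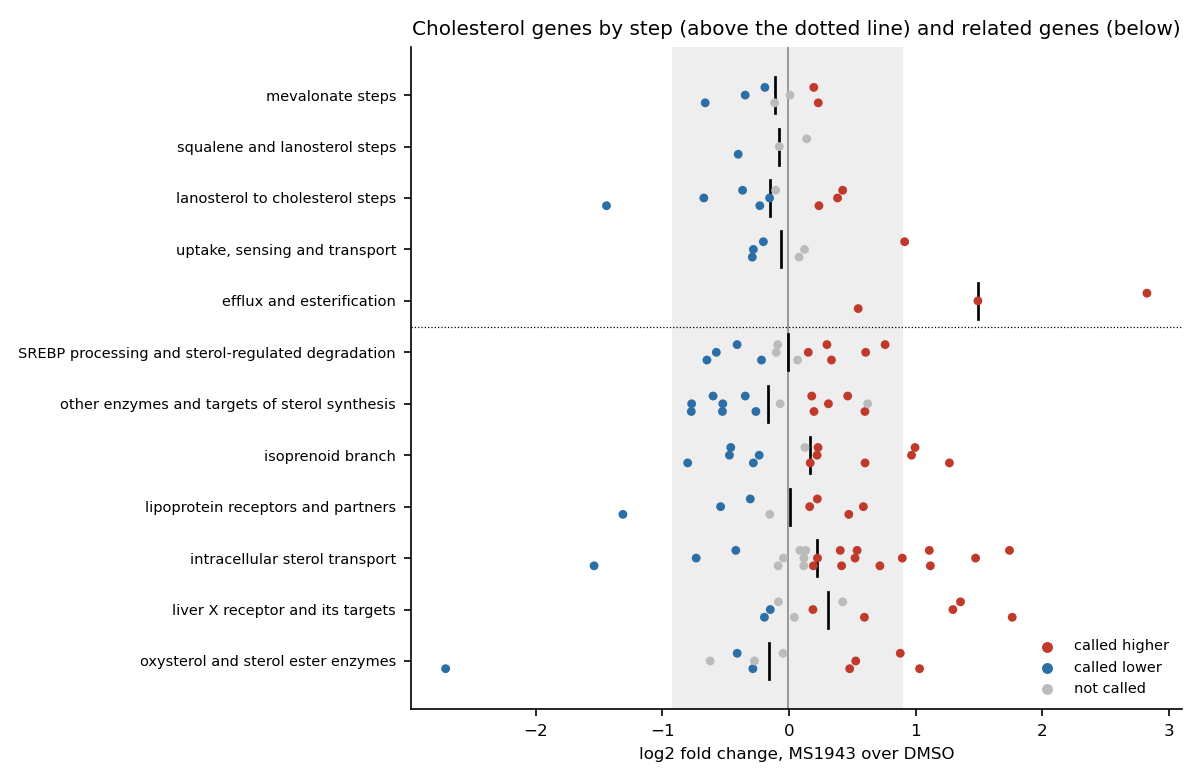
Log2 fold change, MS1943 over DMSO (x axis), of every tested gene of the 5 pathway steps (above the dotted line) and of the 7 related lists (below), red where called higher, blue where called lower and grey where not called; black bars are list medians, the grey line is the median of all tested genes and the shaded band spans their 10th to 90th percentile. The 3 efflux and esterification genes all lie to the right, and the synthesis steps lie within the band except TM7SF2.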

How the data were processed

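RNA-seq of 4 MDA-MB-468 libraries was used, 2 MS1943 and 2 DMSO, grouped by the treatment label. Per the labels' protocols, poly(A) RNA was made into TruSeq RNA v2 libraries, which do not mark strand. The build hg38 and the tools Salmon 0.9.1, R 3.4.3 and DESeq2 come from the submitters' processing notes. Which annotation release and which options Salmon ran with is not given in the sources used here. Each library's deposited file holds estimated counts, Salmon's reads per transcript, and the deposited TPM values are its length-scaled abundances, per the file headers. Of 197653 transcripts, 193505 matched GENCODE 29, and the rest held 0.482% to 0.496% of reads. Reads and TPM were summed per gene, and reads were rounded. The files' length columns, in no expression unit, served only an offset for transcript length.

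Genes were tested by quasi-likelihood F in edgeR 4.0.16 (R 4.3.3, TMM, filterByExpr, treatment alone), with Benjamini-Hochberg adjustment over 19358 genes. The SE is the log2 fold change divided by the square root of F. The common biological coefficient of variation was 0.0478. Replicates spread beyond counting error: chi-square per degree of freedom was 6.50 for the MS1943 pair and 7.01 for the DMSO pair. Error in assigning reads can add to these values, so they do not settle whether the replicates are separate libraries. The scripts were tested on simulated data. The common coefficient at transcript level was 0.37, so a transcript that was not called says little. DESeq2 1.42.0, total-read scaling, 2 other filters, the length offset and each library left out were tried. Reads carry no molecular identifiers, so counting error alone understates the error.

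The 28 genes and the lists were chosen with earlier results of these data known. Named genes are the 28 and, of each related list, up to 4 with the smallest adjusted p among those called; some genes it takes are not reported here. Promoters shown are those with a motif of SREBP, plus MVK, added after its matches were seen.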

Additional observations from a re-analysis of the deposited data

How the results depend on the processing

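Of 252 values of single cholesterol genes under 9 alternatives, 228 kept direction and call, 6 no longer passed, 11 newly passed and 7 changed sign, none of these called. ACAT2 went to -0.10 with total-read scaling, -0.028 with no filter and -0.0039 with the 1 CPM filter, and ranged from -0.068 to 0.077 with 1 library left out. VLDLR went to -0.034 with total-read scaling, and FDFT1 ranged from -0.16 to 0.0023 with 1 library left out. The cause was not tested. The counts of the 28 genes that rose and that fell also shifted with 1 library left out. Under total-read scaling 3 synthesis enzymes rose and 12 fell, 3 other enzymes and targets of sterol synthesis rose, 4 isoprenoid and 2 lipoprotein receptor genes rose, 5 sterol transport genes fell, and 14 transcripts of the 28 genes fell. With the length offset 2 lipoprotein receptor genes rose and 0 genes of the liver X receptor list fell; with DESeq2 1 of that list fell. Without 1 library, the counts for lipoprotein receptor genes, the liver X receptor list and the transcripts shifted too. Over all tested genes, total-read scaling called 4619 higher and 6973 lower of 19358, and the length offset 4934 and 5024. DESeq2 called 4867 higher and 4491 lower of 35443. The shares over all transcripts, and over all genes in a fit without 1 library, are not set beside these counts. In such a fit 1 residual degree of freedom remains for 2 fitted means. The lone sample is then assumed to vary like the other group. No paired analysis was made, because the labels give no replicate numbers and do not say how the title letters relate the libraries.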

Other observations

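The DMSO libraries differed from each other across the synthesis enzymes. Of the 19 enzymes, 17 were higher in DMSO replicate 1 than in DMSO replicate 2, by a median of 0.13 on the log2 scale, where 57.7% of all tested genes and 69.8% of genes with an average of at least 3 log2 CPM were higher, by medians of 0.03 and 0.05. The MS1943 libraries did not show such an offset: 7 of 19 enzymes were higher in MS1943 replicate 1, with a median of -0.0090. There 50.0% of all tested genes and 49.5% of genes with an average of at least 3 log2 CPM were higher. The calls of HMGCS1, DHCR7, SQLE, FDPS, FDFT1 and SREBF2 depended on which DMSO library was kept, and those of ABCA1, ABCG1, SOAT1, STARD4, TM7SF2, LBR and MVK did not.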
